A study of Mus musculus with 4 samples.

Results

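The microRNA processing machinery was followed in a mouse macrophage cell line given bacterial lipopolysaccharide (LPS). Its 9 genes were chosen by symbol, as the platform annotation of the arrays gives it: Dgcr8, Rnasen (now Drosha), Dicer1, Xpo5, Eif2c1, Eif2c2 and Eif2c3 (now Ago1, Ago2 and Ago3), Tarbp2 and Tnrc6a. They are 9 of the 21946 gene symbols on the array and are read by 17 of its 45281 probes. The cells were RAW G9, a clone grown from a single RAW264.7 macrophage, which the sample labels name only as RAW264.7. Besides its own genes, the clone carried a lentiviral cassette in all samples, with GFP-RelA driven by the Rela promoter and an mCherry reporter with a PEST tag driven by the Tnf promoter. There were 2 arrays of cells given LPS of Salmonella minnesota R595 at 10 ng/ml for 4 h (LPS A and LPS B), and 2 arrays of untreated cells (untreated A and untreated B), described as biological duplicates. Untreated cells carry an incubation tag of 0 h, while the treatment protocol gives 4 h for both concentrations.

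A microRNA starts as a hairpin within a long transcript. In the nucleus the Microprocessor, made of the nuclease DROSHA and its RNA-binding partner DGCR8, cuts the hairpin out, and exportin 5, the product of Xpo5, carries it to the cytoplasm. There DICER1, with its partner TARBP2, cuts off the loop, and an Argonaute protein keeps one strand as the guide of the silencing complex. TNRC6A, also named GW182, binds Argonaute and brings in the enzymes that remove the poly(A) tail and the cap of target mRNAs. In macrophages this pathway makes microRNAs that are known for tuning the response to LPS. The arrays read the mRNAs of these genes, and mature microRNAs were not analysed here.

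The 10 macrophage markers examined, Csf1r, Lyz2 and Spi1 among them, were all detected in both conditions, and 0 of the 4 T cell, 2 B cell and 4 fibroblast markers with a probe were detected in either. Of the other marker lists, 2 of 4 epithelial (Krt8, Cdh1), 2 of 4 endothelial (Cdh5, Kdr) and 2 of 3 neutrophil markers (Elane, S100a8) were detected in at least 1 condition, and their part in the results was not tested. As a check of the labels, Tnf, an LPS-induced cytokine gene, gave signal intensities of 11660 and 9412 on the LPS arrays, against 856 and 707 on the untreated arrays. The array-wide median signal was 104.1 and 105.1 with LPS and 117.8 and 114.1 without, and the 95th percentile was 7.47 and 6.59 times that median with LPS and 12.0 and 10.1 times without. The scale of the arrays therefore differed by condition before normalization. LPS A and LPS B lay on a slide each and both untreated arrays shared another, so LPS and slide cannot be told apart. In bulk samples, fewer cells of a type and less RNA per cell cannot be told apart either.

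No member probe passed the threshold as higher with LPS in the reported setting, and the lowest adjusted p-values were those of Microprocessor genes. Detection in a condition required a detection p under 0.1 on both of its arrays, and a probe detected in at least 1 condition was tested. By this rule 12 of the 17 member probes were tested, which cover 8 of the 9 genes, and 5 probes were not. At an adjusted p under 0.05 from limma, 3 of the 12 probes were lower with LPS (1 each of Drosha, Dgcr8 and Dicer1), 0 were higher and 9 did not pass. At an unadjusted p under 0.05 the counts were 5 lower and 0 higher, and with the replicate letter as a block 1 probe, that of Ago2, passed as higher. Over all 17211 tested probes, 32.6% passed in either direction, with 19.0% lower and 13.5% higher, so the 25% of member probes that passed lies below the array-wide share for either direction and a little above that for lower ones. The median log2 change of the 12 probes, LPS minus untreated, was -0.22, and that of all tested probes was -0.07. The estimated changes ran between -0.70 and 0.46 and were negative for 11 of the 12 probes, where the array-wide median was itself negative. Against that median Ago2 (by 0.53), Xpo5 (by 0.012) and Tarbp2 ILMN_2649955 (by 0.013) lay higher, and the other tested member probes lower. On the normalized log2 scale both LPS arrays were below both untreated arrays for 8 probes, above them for 1 and overlapping for 3. The array-wide shares of tested probes were 40.1% below and 28.7% above.

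**Figure D1:**
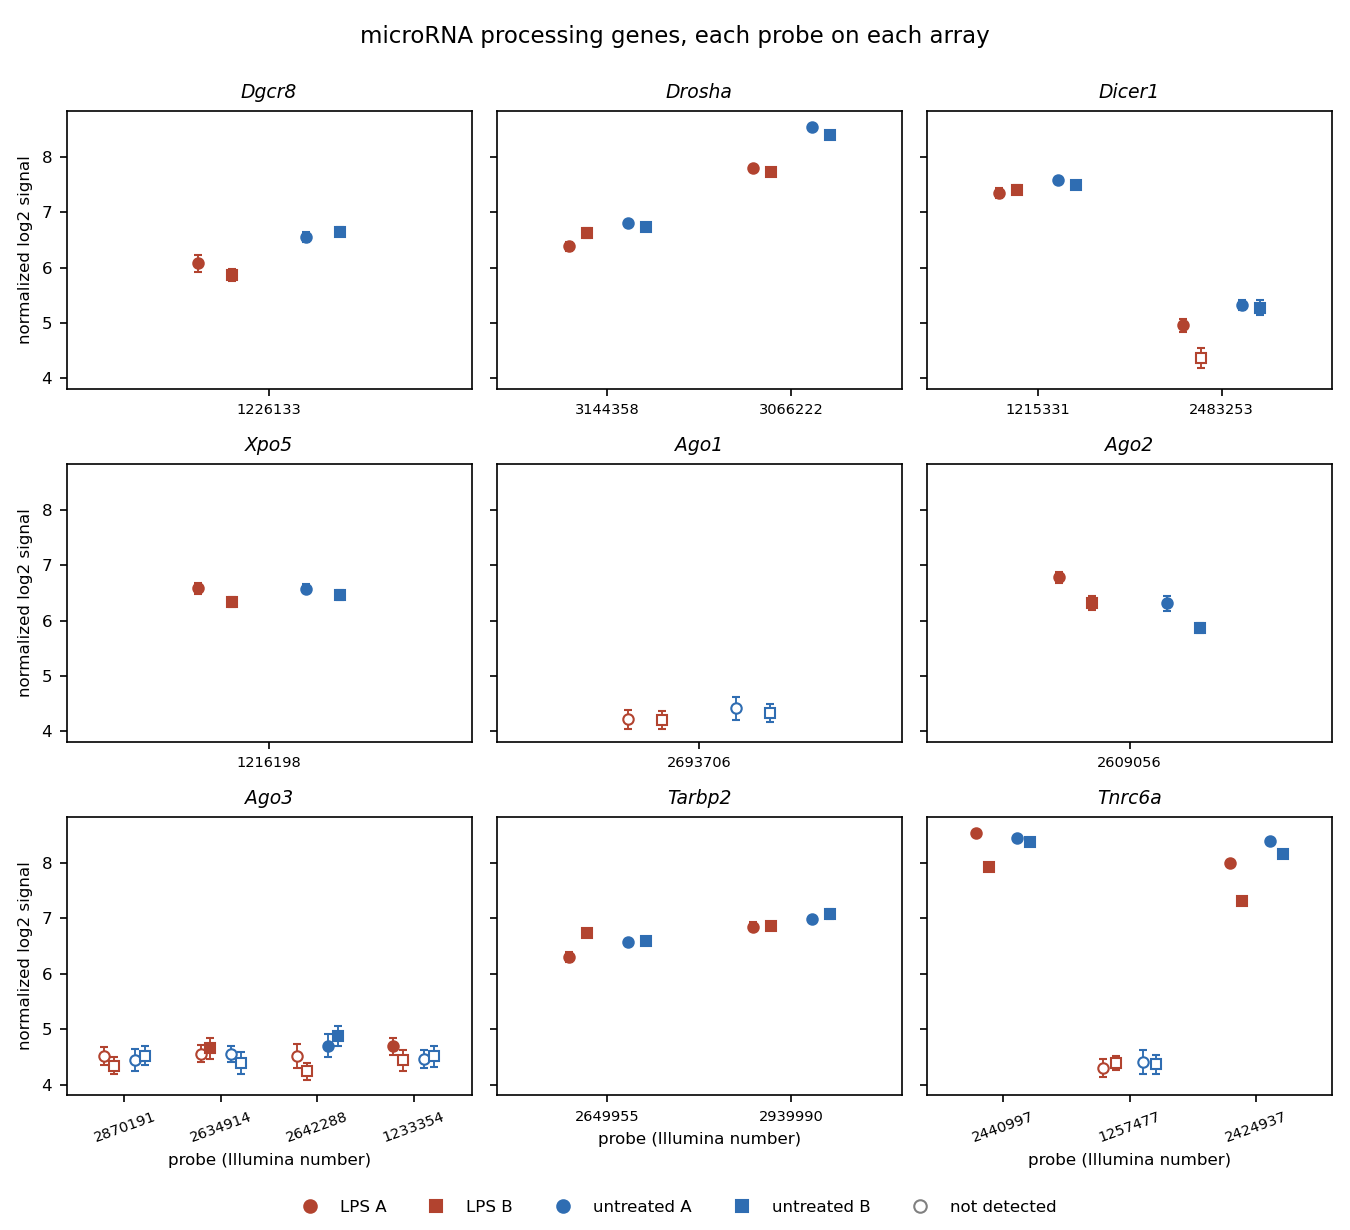
Normalized log2 signal (vertical axis) of each of the 17 member probes on each of the 4 arrays, with the probe's Illumina number on the horizontal axis. Red points are LPS arrays and blue points untreated arrays, circles are replicate A and squares replicate B, bars are the standard error over beads, and open points were not detected. Both LPS points of Dgcr8 and of Drosha ILMN_3066222 lie below both untreated points, and the points of Xpo5 overlap.

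Drosha, the nuclease that makes the first cut, was read by 2 probes. Probe ILMN_3066222 gave deposited signals of 247 and 217 on the LPS arrays, against 651 and 489 on the untreated arrays, from 37 to 53 beads an array. Its normalized log2 values were 7.79 and 7.73 with LPS and 8.54 and 8.38 in untreated cells. The LPS values lie together and well below both untreated values, which differ from each other by more than the LPS pair does. The log2 change was -0.70 (standard error 0.135, 95% interval -1.02 to -0.39, adjusted p = 0.0075 by limma), the largest fall among the member probes. Probe ILMN_3144358 had log2 values of 6.38 and 6.62 with LPS and 6.80 and 6.74 in untreated cells. Here too the LPS arrays were the lower ones, but the change of -0.27 (95% interval -0.60 to 0.07, adjusted p = 0.193) did not pass. Its deposited signals were 149 and 150 with LPS and 263 and 219 in untreated cells. Both probes are annotated to the same transcript, and whether they differ in their response was not tested.

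Dgcr8, whose protein recognises the hairpin for DROSHA, had 1 probe. Its deposited signals were 138 and 127 with LPS and 235 and 212 in untreated cells, with standard errors over beads of 3.04 to 7.85. On the log2 scale this gave 6.08 and 5.86 with LPS, against 6.55 and 6.65 in untreated cells. The gap between the conditions was wider than either pair's own spread. In log2 units Dgcr8 fell by 0.63, with a 95% interval of the change of -0.96 to -0.30, a standard error of 0.141 and an adjusted p of 0.0141 by limma. The calls of Dgcr8 and of Drosha probe ILMN_3066222 were lost without either untreated array, while the changes stayed of like size, at -0.65 and -0.58 for Dgcr8 and -0.62 and -0.78 for Drosha without untreated A and untreated B. Without untreated A the adjusted p was 0.104 for Dgcr8 and 0.106 for Drosha, and without untreated B it was 0.159 for Dgcr8 and 0.0613 for Drosha. A random block for slide, whose correlation cannot separate slide from the spread of LPS cells, gave an adjusted p by limma of 0.0948 for Dgcr8 and 0.0674 for Drosha. Without background correction the change was -0.28 for Dgcr8 and -0.51 for Drosha. Over the 14 alternative settings both probes stayed negative, and each passed in 11. The adjusted p ranged over these settings between 1.90e-05 and 0.159 for Dgcr8 and between 5.96e-06 and 0.106 for Drosha.

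As background, the Microprocessor is known to cut hairpins in the Dgcr8 mRNA itself, as part of the cross-control of DGCR8 and DROSHA. The mouse annotation places 2 microRNA hairpins inside Dgcr8 on its own strand, on the minus strand of chromosome 16. Their mature sequences from RefSeq (GRCm38.p6) are shown because Dgcr8 is a member whose probe passed as lower in the reported setting. They are written 5′ to 3′ with the seed, bases 2 to 8, in capitals.
mmu-miR-3618-5p, chr16:18284602-18284623: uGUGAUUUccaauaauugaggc
mmu-miR-3618-3p, chr16:18284562-18284583: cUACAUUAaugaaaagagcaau
mmu-miR-1306-5p, chr16:18284288-18284310: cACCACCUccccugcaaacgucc
mmu-miR-1306-3p, chr16:18284248-18284268: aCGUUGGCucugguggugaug
No seed is shared among them. Their levels, and the mRNA pieces left by the cut, were not analysed here.

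Xpo5, the exporter of the cut hairpins, showed no difference beyond the error of these arrays. Its deposited signals were 158 and 139 with LPS and 238 and 197 in untreated cells. The log2 values were 6.58 and 6.34 with LPS and 6.58 and 6.46 in untreated cells, so that the 2 ranges overlap. The change was -0.06 (standard error 0.145, adjusted p = 0.779), with a 95% interval of -0.40 to 0.28. Xpo5 also holds a microRNA hairpin on its own strand, the plus strand of chromosome 17, and its mature sequences are given because this member is both a transcript with a hairpin and the carrier of hairpins.
mmu-miR-693-5p, chr17:46231551-46231571: cAGCCACAuccgaaaguuuuc
mmu-miR-693-3p, chr17:46231581-46231603: gCAGCUUUcagauguggcuguaa

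Dicer1, whose product removes the hairpin's loop, was read by a bright and a dim probe. The bright one, ILMN_1215331, had deposited signals of 205 and 191 with LPS and 382 and 306 in untreated cells, and log2 values of 7.35 and 7.41 with LPS and 7.58 and 7.49 in untreated cells. The LPS arrays were both lower, by a small step: the change was -0.15 (standard error 0.130, 95% interval -0.46 to 0.15, adjusted p = 0.399). The dim probe, ILMN_2483253, had log2 values of 4.95 and 4.36 with LPS and 5.33 and 5.28 in untreated cells. LPS B was not detected there (its detection p-value was 0.40), so only 1 of the 2 LPS arrays measured it, and the values lie near the floor of 4.56 to 4.65 at which detection begins. Its change was -0.65 (standard error 0.201, adjusted p = 0.0458), just past the threshold. It passed in 6 of 14 alternative settings, with an adjusted p between 0.000276 and 0.648 over them, and its change was -0.18 without background correction.

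Tarbp2, the double-stranded RNA-binding partner of DICER1, did not pass with either of its 2 probes. Probe ILMN_2939990 had log2 values of 6.85 and 6.86 with LPS and 6.98 and 7.08 in untreated cells (change -0.17, 95% interval -0.48 to 0.13, adjusted p = 0.342). Probe ILMN_2649955 had 6.31 and 6.73 with LPS and 6.57 and 6.59 in untreated cells (change -0.06, 95% interval -0.46 to 0.34, adjusted p = 0.816). In the first the LPS arrays were the lower ones, and in the second one LPS array lay below and the other above the untreated pair. Without LPS A the second probe's change was 0.16. The deposited signals were 171 and 159 with LPS and 286 and 252 in untreated cells for the first probe, and 146 and 154 with LPS and 237 and 207 in untreated cells for the second.

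Among the Argonautes, Ago2, the one best known for cutting its target RNA, was the single member whose estimate was positive. Its log2 values were 6.78 and 6.32 with LPS and 6.31 and 5.87 in untreated cells, so that LPS B was barely above untreated A. The spread within each pair was about as wide as the distance between the pairs, with SDs of 0.32 in LPS cells and 0.31 in untreated cells. The change of 0.46 (standard error 0.209, 95% interval -0.03 to 0.95, adjusted p = 0.135) did not pass, and its sign turned to -0.32 with median scaling of the arrays. Without LPS B it was 0.70 (adjusted p = 0.0094), against a range of 0.0094 to 0.622 over all 14 alternatives. On the deposited scale Ago2 had 167 and 139 with LPS and 213 and 162 in untreated cells, and it was the one member probe of 17 whose LPS arrays were not both below both untreated arrays.

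Ago1 was not detected. Its single probe had signals of 95.8 and 96.6 with LPS and 118 and 111 in untreated cells, with detection p-values of 0.236 or above, so it has no change to report. Ago3 had 4 probes, of which 3 were not detected on both arrays of any condition: their log2 values ran between 4.34 and 4.69 on the LPS arrays and between 4.39 and 4.55 on the untreated arrays, mixed among each other. The fourth, ILMN_2642288, was detected in untreated cells only, with log2 values of 4.52 and 4.24 with LPS and 4.71 and 4.88 in untreated cells. The test did not pass (adjusted p = 0.077). The log2 change was -0.42 with background correction, -0.14 without it and 0.31 with median scaling over the tested probes, so no direction is given. Counting a gene by any of its probes, 7 of the 9 members were detected with LPS and 8 in untreated cells, Ago3 making the difference.

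Tnrc6a, the scaffold that links Argonaute to mRNA decay enzymes, had 2 detected probes of 3. Probe ILMN_2424937 had log2 values of 8.01 and 7.32 with LPS and 8.39 and 8.16 in untreated cells. Both LPS arrays were lower, but they differed from each other more than LPS A differed from either untreated array. The change was -0.61 (standard error 0.230, 95% interval -1.15 to -0.07, adjusted p = 0.0828), and without LPS A it was -0.96 (adjusted p = 0.000743, in a range over alternatives of 9.08e-05 to 0.359). Probe ILMN_2440997 had 8.55 and 7.92 with LPS and 8.44 and 8.38 in untreated cells, so that the untreated pair lay between the LPS arrays (change -0.18, 95% interval -0.67 to 0.31, adjusted p = 0.54). It was -0.50 without LPS A (adjusted p = 0.0108, in a range over alternatives of 0.000968 to 0.805) and 0.13 without LPS B. The deposited signals of this probe were 356 and 237 with LPS and 615 and 489 in untreated cells, and those of the first probe were 273 and 185 with LPS and 597 and 429 in untreated cells. The third probe, ILMN_1257477, was not detected on any array, with log2 values of 4.30 and 4.39 with LPS and 4.42 and 4.37 in untreated cells. Drosha, Dicer1, Tarbp2 and Tnrc6a each had 2 tested probes, and within each gene both estimates were negative. How often this holds over the array was not counted. Tarbp2 ILMN_2649955 and Tnrc6a ILMN_2440997 had overlapping arrays, and their estimates turned positive when an LPS array was left out.

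The size of every change depended on how the arrays were brought to one scale. On the deposited scale, before any normalization, 16 of the 17 member probes had both LPS signals below both untreated signals, among them each of the 12 tested ones but Ago2. So had 89.3% of all tested probes, and the ratio of mean signals, LPS over untreated, ran between 0.407 (Drosha ILMN_3066222) and 0.816 (Ago2) over the tested member probes. Quantile normalization, used for the values above, gives all arrays one distribution. Scaling each array to the median of all probes instead moved the median log2 change of the tested probes by -0.55, to -0.62, and 58.7% of them then passed as lower and 4.76% as higher. That is 10095 lower and 819 higher, against 3273 lower and 2332 higher with quantile normalization. Scaling to the median of the tested probes moved their median change the other way, to 0.18, with 34.9% higher and 16.2% lower. Under median scaling over all probes 11 of the 12 member probes were lower, and only Ago2 did not pass. Taken relative to the median of the tested probes, the change was -0.96 for Drosha ILMN_3066222, -0.87 for Tnrc6a ILMN_2424937 and -0.74 for Dgcr8 under that scaling. Those of Xpo5, at -0.23, of Tarbp2 ILMN_2649955, at -0.25, and of the dim Dicer1 probe, at -0.28, lay nearer to the median. Ago2 was above it by 0.29 and Ago3 ILMN_2642288 by 0.13.

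**Figure D2:**
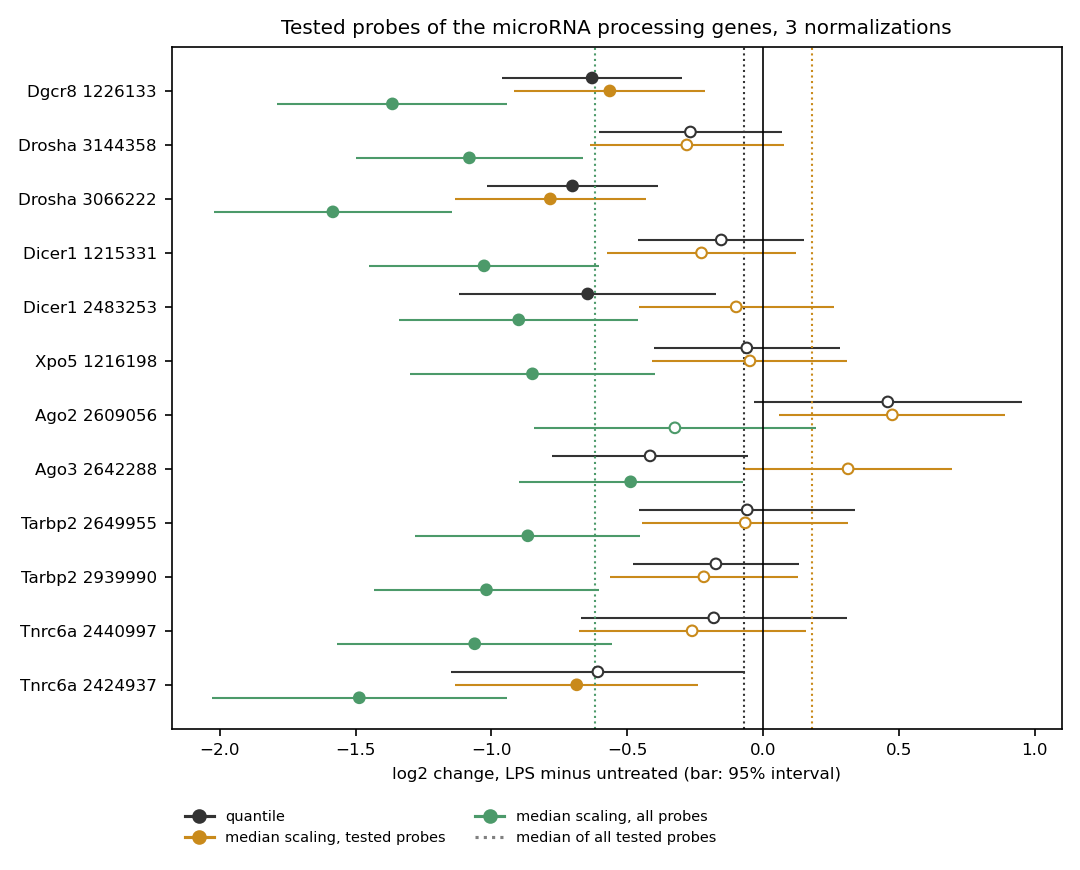
Log2 change, LPS minus untreated, with its 95% interval (horizontal axis) for the 12 tested member probes (vertical axis) under 3 normalizations, with filled points where the adjusted p was under 0.05. Dotted lines mark the median of all tested probes under each normalization. It is -0.07 for quantile normalization, 0.18 for median scaling over the tested probes and -0.62 for median scaling over all probes. Under the last, all tested members but Ago2 are filled.

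Over all alternatives, Drosha ILMN_3066222 had changes of -0.50 to -1.58 and Dgcr8 of -0.26 to -1.36. The bright Dicer1 probe, both Tarbp2 probes and Xpo5 each passed in 1 of 14 alternatives, median scaling.

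**Figure D3:**
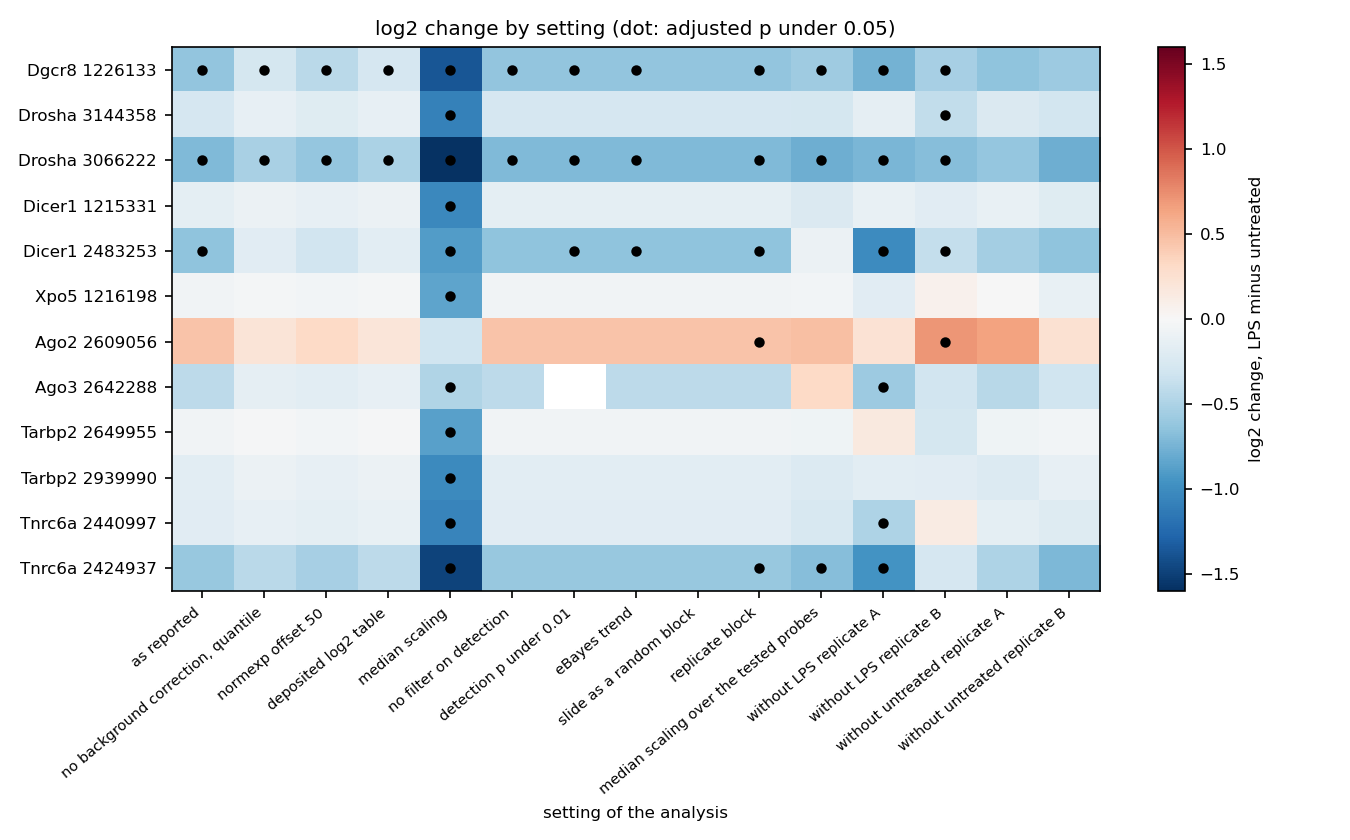
Log2 change, LPS minus untreated (colour scale), of the 12 tested member probes (rows) in the reported setting and 14 alternatives (columns), with a dot where the adjusted p was under 0.05 and white where a probe was not tested. The rows of Dgcr8 and Drosha ILMN_3066222 are blue throughout and lack a dot with slide as a block and without either untreated array, and the row of Ago2 turns blue under median scaling.

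The closest relatives of the members differed among themselves. Prkra, also named PACT, another RNA-binding partner of DICER1 and an activator of the kinase PKR, fell by 1.30 (standard error 0.173, adjusted p = 0.00151), and it passed in all 14 alternatives (adjusted p of 1.20e-07 to 0.018). Its single probe had log2 values of 6.30 and 6.74 with LPS and 7.79 and 7.86 in untreated cells, with no overlap. Tnrc6c, a paralog of Tnrc6a, had values of 6.39 and 5.91 with LPS and 6.49 and 6.81 in untreated cells and did not pass (change -0.50, adjusted p = 0.0927). Tnrc6b had 4.73 and 4.82 with LPS, and was not detected on the untreated arrays, at 4.53 and 4.41. The test did not pass (adjusted p = 0.123), and the change was 0.30 with background correction and 0.088 without. Ago4 was not tested.

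The wider pathway was read from 7 lists, the paralogs among them, with each gene taken at its brightest tested probe. Of their 79 tested genes 15 were higher and 15 lower with LPS. Of the 10157 genes tested on the array 34.6% passed, 13.6% higher and 21.1% lower, with a median change of -0.09. Among the helpers of the Microprocessor and of nuclear export, 1 of 14 was higher, 2 were lower and 11 did not pass (median -0.03). Smad3, whose protein is known to recruit hairpins to the Microprocessor after TGF-β signalling, fell by 2.69 (adjusted p = 0.000143) to log2 values of 4.62 and 5.28 with LPS, against 7.66 and 7.61 in untreated cells. The lower LPS value lies at the floor of detection, and the change was -1.20 without background correction. The RNA helicase genes of the complex differed in sign: Ddx17 fell by 0.55 (adjusted p = 0.0257) by 1 of its 2 tested probes, and Ddx5 was higher by 0.53 (adjusted p = 0.0274), though Ddx5 had a change of -0.35 with median scaling, and each passed in 9 of 14 alternatives.

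Among 13 genes for loading the silencing complex and for partners of Argonaute, 2 were higher, 3 lower and 8 did not pass (median 0.11). Mov10, a helicase that binds Argonaute and is known as an interferon-induced antiviral gene, rose by 1.40 (adjusted p = 0.000652), with log2 values of 7.30 and 7.22 with LPS and 5.69 and 6.02 in untreated cells. Its other 2 tested probes did not pass. Fxr2, a relative of the fragile X protein, rose by 0.85 (adjusted p = 0.0154) and was at -0.023 with median scaling, and Fkbp4 and Stub1, co-chaperones of the loading complex, fell by 0.56 and 0.52. Fxr2 and Fkbp4 kept their calls in 9 of 14 alternatives each and Stub1 in 7.

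The enzymes downstream of TNRC6A, for deadenylation, decapping and decay, held 5 higher, 1 lower and 14 genes that did not pass (median 0.23). Dcp2, the decapping enzyme, had log2 values of 8.52 and 8.64 with LPS, against 6.42 and 6.48 in untreated cells, and rose by 2.13 (adjusted p = 4.01e-05). Xrn1, the exonuclease that degrades decapped mRNA, was higher by 1.21 (adjusted p = 0.00512), but its probe was detected on only 1 of the 2 untreated arrays, and the change was 0.37 without background correction. Cnot4, a ubiquitin ligase tied to the deadenylase complex, rose by 0.90 (adjusted p = 0.0321) by 1 of its 2 tested probes, the other being at -0.15 without passing, and Cnot1, its scaffold, fell by 0.51 (adjusted p = 0.0458). Cnot1 and Cnot4 kept their calls in 6 of 14 alternatives each.

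Of the 8 tested genes that edit, tail or trim microRNA precursors, 3 were higher, 1 was lower and 4 did not pass (median 0.21). Zc3h12a, an RNase that degrades cytokine mRNAs and in human cells is known to cut the loops of precursors, had log2 values of 9.71 and 9.35 with LPS and 6.04 and 6.16 in untreated cells. Its rise of 3.43 (adjusted p = 1.09e-05) was the largest change in the 7 lists. Adar, an adenosine deaminase that edits double-stranded RNA and has an interferon-induced form, rose by 1.76 (adjusted p = 0.000137), and all 5 of its probes passed as higher, with changes of 0.91 to 2.04. Tut7 (Zcchc6 on the array), which adds uridines to precursors of let-7, rose by 1.35 (adjusted p = 0.000608), with all 3 probes higher. Parn, a poly(A) ribonuclease that trims RNA ends, fell by 0.49 (adjusted p = 0.025). Of 10 genes of the germline Piwi pathway, 3 were tested and 0 passed by limma, with 0 at an unadjusted p under 0.05. Smad3, Mov10, Dcp2, Xrn1, Zc3h12a, Adar and Tut7 passed in the same direction in all 14 alternatives. The sizes of several changes depended on background correction: without it they were -0.77 for Prkra, 0.68 for Mov10 and 1.37 for Dcp2, against -1.30 for Prkra, 1.40 for Mov10 and 2.13 for Dcp2 with it.

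**Figure D4:**
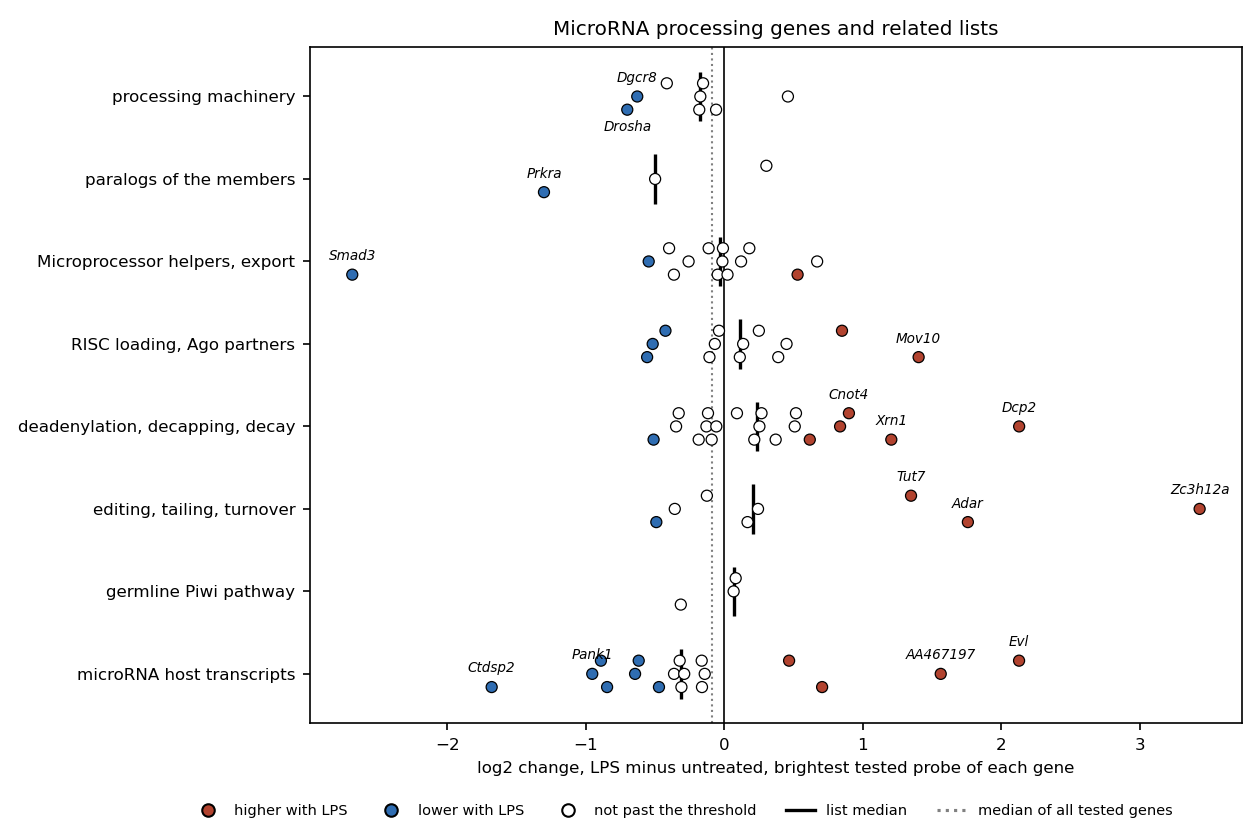
Log2 change, LPS minus untreated (horizontal axis), of the 8 tested members and of the 79 tested genes of 7 related lists, each gene by its brightest tested probe. Filled points passed (red higher, blue lower), thick lines are list medians and the dotted line is the median of all tested genes, -0.09. The members span -0.70 to 0.46, while Zc3h12a reaches 3.43 and Smad3 -2.69.

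Transcripts that carry microRNA hairpins are what the Microprocessor acts on, and 11 of their 18 tested genes passed, 4 higher and 7 lower (median -0.32). Over all genes tested on the array 34.6% passed, 13.6% higher and 21.1% lower. The list was chosen with earlier results of these data known, so its share is a description only. Of the 28 hosts listed, 25 had a probe and 7 of those were not tested. Dnm2 and Dnm3, among the untested, hold their annotated hairpins on the opposite strand, so their own transcripts do not carry them. Mir155hg, the host of miR-155, Mir22hg and Mir17hg had no probe under the symbols used. Evl, an actin regulator and host of miR-342, had log2 values of 7.80 and 7.35 with LPS, against 5.61 and 5.28 in untreated cells, and rose by 2.13 (adjusted p = 0.000263). AA467197, the host of miR-147, was at 5.74 and 5.84 with LPS and not detected in untreated cells, at 4.22 and 4.24. On the background-corrected scale the bound was at least 2.33-fold above untreated cells, with an adjusted p of 0.000168, and without background correction its log2 change was 0.52 (adjusted p = 0.00347, in a range over alternatives of 2.60e-07 to 0.00405). Vmp1, an autophagy gene that holds miR-21a, rose by 0.71 (adjusted p = 0.0118, with 3 of 4 tested probes higher) and was at -0.084 with median scaling. Among the hosts that were lower, Ctdsp2, a phosphatase gene, fell by 1.68 (adjusted p = 0.00229) and Pank1, a pantothenate kinase gene, by 0.95 (adjusted p = 0.00304). Without background correction the changes were 1.03 for Evl, -0.93 for Ctdsp2 and -0.50 for Pank1.

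For each of these 5 hosts 1 mature sequence is given, the arm commonly taken as the main product where RefSeq lists both, as an example of what the machinery cuts from them, with seeds in capitals, all on the strand of the host (RefSeq, GRCm38.p6). For AA467197 only miR-147-5p was listed, so it is not given as the main product.
mmu-miR-342-3p, in Evl, chr12:108658680-108658702, plus strand: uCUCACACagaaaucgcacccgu
mmu-miR-147-5p, in AA467197, chr2:122640814-122640837, plus strand: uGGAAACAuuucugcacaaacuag
mmu-miR-21a-5p, in Vmp1, chr11:86584120-86584141, minus strand: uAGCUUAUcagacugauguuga
mmu-miR-26a-5p, in Ctdsp2, chr10:126995543-126995564, plus strand: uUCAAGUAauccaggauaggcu
mmu-miR-107-3p, in Pank1, chr19:34820700-34820722, minus strand: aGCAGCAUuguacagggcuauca
The sequence of miR-26a-5p is also found in Ctdspl and its seed is shared with miR-26b-5p in Ctdsp1, and that of miR-107-3p with miR-103-3p in Pank2 and Pank3. A host's mRNA is no measure of its microRNA, and the microRNAs were not measured on these arrays.

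As a description of likeness, the centred log2 values of Drosha ILMN_3066222 over the 4 arrays lay nearest to those of Fam185a, Slc48a1 and Selplg, at root mean square distances of 0.0120, 0.0131 and 0.0131. With 4 arrays such likeness is common: 639 tested probes lay within 0.1 of this Drosha probe.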

How the data were processed

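The authors extracted the average signal intensity of each probe using GenomeStudio 2011.1. Each array's deposited file gives it on a linear scale, not normalized, with the standard error over beads and the number of beads (19 to 66 for the member probes). The deposited detection p-value sets a probe against the negative controls of its array. A deposited series table of log2 values, whose normalization target is not given in the sources used here, was an alternative. Probes were named from the platform annotation, and updated symbols and microRNAs came from RefSeq (GRCm38.p6, names and microRNA positions only). Signals were corrected, quantile normalized and taken to log2 by neqc of limma 3.58.1 (R 4.3.3, offset 16, negative controls inferred from detection p-values). Tested probes were fitted with lmFit and eBayes, with Benjamini-Hochberg adjustment over 17211 probes. The procedure was tested on simulated data with independent noise on each array and no slide or scale effect. Its pass rule covered only planted changes larger than any member change, so it does not bear on changes of member size. Named genes were all members, the tested paralogs, up to 3 largest rises and 2 largest falls of each list past the threshold with arrays apart, and the 3 nearest patterns. The members and lists were chosen with earlier results of these data known. Alternatives covered background correction, scaling, detection filter, variance model, slide, replicate letter and each array left out. The number of arrays limits the precision.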

Additional observations from a re-analysis of the deposited data

How the results depend on the processing

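The count of member probes past the threshold was 3 in the reported analysis. It was 2 without background correction, with an offset of 50, with the deposited log2 table and without the filter on detection, and 3 at a detection p under 0.01, with a variance trend and with median scaling over the tested probes, which was added after seeing the data. That scaling gave another set by limma: the dim Dicer1 probe did not pass (adjusted p = 0.648) and Tnrc6a ILMN_2424937 passed as lower (adjusted p = 0.0137). The count was 11 with median scaling over all probes and 0 with slide as a random block (3 at an unadjusted p under 0.05), whose correlation of 0.7324 was taken from the spreads of the array pairs because duplicateCorrelation gave no estimate for 4 arrays on 3 slides. Leaving out 1 array at a time gave 0 to 6 member probes: 6 without LPS A, 5 without LPS B and 0 without either untreated array (at an unadjusted p under 0.05, 2 lower and 1 higher without untreated A, and 3 lower without untreated B). The related lists had 30 genes past the threshold, 62 with median scaling (54 lower, 8 higher), 13 with slide as a block and 12 to 42 with 1 array left out (12 without untreated B, 13 without untreated A). Over all tested probes 5605 passed, against 2553 with slide as a block, 8791 with medians of tested probes scaled, 10914 with median scaling and 2098 to 8808 with 1 array left out. Where an array is left out, the lone array is assumed to vary like the other pair.

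Signs turned for Ago2 (-0.32), Ddx5 (-0.35), Fxr2 (-0.023) and Vmp1 (-0.084) with median scaling, for Ago3 (0.31) with median scaling over the tested probes, for Tarbp2 ILMN_2649955 without LPS A (-0.28 to 0.16 with 1 array left out), and for Xpo5 (-0.18 to 0.063) and Tnrc6a ILMN_2440997 (-0.50 to 0.13) without LPS B. The cause was not tested. The dim Dicer1 probe missed the threshold in 8 of 14 alternatives. With replicate letter as a replicate block, 5 member probes passed, 4 lower and 1 higher, with Ago2 (adjusted p = 0.0298) and Tnrc6a ILMN_2424937 (adjusted p = 0.0119) added. The same-lettered arrays share only a letter, and their deviations correlated at r = 0.145 across probes. The number of detected members was 7 or 8 in both conditions under all detection rules tried.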
